A study of Mus musculus with 18 samples.

Results

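The genes described here code for the fibrous and interstitial extracellular matrix. They are every collagen gene of the count table except those of collagen IV, together with Fn1, Dcn, Lum, Bgn, Fmod, Postn, Sparc, Tnc, Lox, Loxl1, Loxl2, Fbn1, Eln, Mgp, Vcan and Mmp2. They were chosen by gene symbol, with no measured value in the rule, and 54 of the table's 24602 genes met it. RNA-seq was done on 18 mouse libraries of the strain 129S1/SvlmJ that carry a knock-in of the R388W change in Nup93, a scaffold protein of the nuclear pore, or its wild-type allele. The 6 groups are nuclear RNA and total RNA of 3 genotypes, with 3 libraries each. The genotypes are R388W/R388W (Nuclear_Hom and Total_Hom), R388W/+ (Nuclear_Het and Total_Het) and wild type (Nuclear_WT and Total_WT). The design text names isolated podocytes of mutant and wild-type animals, while the tissue label says only mouse tissue. Age is not given in the sources used here, and no label says that the 3 libraries of a group come from separate animals, so p-values measure the spread between libraries, which may be technical.

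The interstitial matrix is built on fibrils of collagens I, III and V, which fibroblasts, pericytes and mesangial cells make in the kidney. Fibril-associated collagens and small proteoglycans bind the fibril surface, collagen VI forms beaded filaments, and fibronectin links fibrils to integrins on cells. Fibrillin and elastin form elastic fibres, and lysyl oxidases crosslink both collagen and elastin. These genes are known as readouts of kidney fibrosis, whereas collagen IV, which is not included, builds the basement membranes.

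Promoter sequences are shown for 4 genes that stand for the patterns described further on. Col3a1 and Col15a1 were lower in Hom than in Het libraries of both fractions, Tnc differed in opposite directions between the fractions, and Col13a1 was high in Total_Hom. Each window holds the 150 bases before the gene's start in RefSeq's table of GRCm38.p6, and the counts themselves were made on mm9. Capitals mark matches, on either strand, to any of 3 short motifs, the CAAT-box letters CCAAT, the GC-box letters GGGCGG and the letters TATAA of a TATA box. In Col3a1 the last motif and its reverse complement overlap. The Col15a1 and Col13a1 windows hold none of the 3 motifs.
Col3a1, chr1:45311388-45311537, plus strand: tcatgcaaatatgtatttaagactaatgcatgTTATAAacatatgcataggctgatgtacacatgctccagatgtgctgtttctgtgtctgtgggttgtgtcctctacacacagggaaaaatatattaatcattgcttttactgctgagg
Col15a1, chr4:47207862-47208011, plus strand: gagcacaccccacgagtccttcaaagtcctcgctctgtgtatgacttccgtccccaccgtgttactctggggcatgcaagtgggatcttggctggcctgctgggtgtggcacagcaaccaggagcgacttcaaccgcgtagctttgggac
Tnc, chr4:64047016-64047165, minus strand: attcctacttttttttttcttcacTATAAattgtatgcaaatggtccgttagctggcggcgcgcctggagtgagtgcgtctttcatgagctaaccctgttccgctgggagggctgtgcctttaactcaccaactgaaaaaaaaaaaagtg
Col13a1, chr10:61979109-61979258, minus strand: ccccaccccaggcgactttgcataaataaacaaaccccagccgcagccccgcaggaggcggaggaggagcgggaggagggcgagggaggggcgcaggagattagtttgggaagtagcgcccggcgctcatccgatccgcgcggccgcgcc

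The promoter table matched 37 of the 54 genes. GGGCGG occurred in the 150-base window of 17 of the 37 (45.9%), against 29.0% of all 27025 promoters. CCAAT occurred in 6 of the 37 (16.2%), against 25.3% of all promoters. TATAA occurred in 5 of the 37 (13.5%), against 14.7%. The 5 were Col3a1, Tnc, Col17a1, Col11a2 and Col10a1. These shares describe letters in a window and no binding.

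The libraries held 17405493 to 23462056 counts each. Total_Hom replicate 2 stood apart from the other libraries of its group by 4.81 times sampling noise, where the other pairs of replicates lay at 1.29 to 1.88 times. It held 73080 CPM, the count scaled by library size, of the ribosomal precursor Rn45s, and the other libraries of its group held 2152 and 2367 CPM. The female-specific Xist was at 496 to 517 CPM in Nuclear_Hom, 493 to 543 CPM in Nuclear_Het and 333 to 352 CPM in Total_WT, and at no more than 1.68 CPM in Nuclear_WT, Total_Hom and Total_Het. Y-linked genes summed to 151 to 165 CPM in those last 3 groups and to at most 2.93 CPM in the first 3. Of these first 3, Nuclear_Het libraries held 2.32 to 2.93 CPM and Nuclear_Hom libraries 0.509 to 0.746 CPM. The sources used here do not say whether libraries came from mice of different sex, and this cannot be told apart here from exchanged labels, so every group is named as labelled and any direction rests on those labels. Hom and Het libraries of a fraction were alike in Xist, but every comparison with WT, and every comparison of nuclear with total RNA within a genotype, cannot be told apart from that difference. Hom against Het within each fraction is described first. Against the podocytes of the design text, proximal tubule markers took 1.5% to 5.05% of all counts as group means and podocyte markers 0.0449% to 0.0705%. In such mixed RNA, fewer cells of a type and less RNA per cell cannot be told apart.

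The matrix genes together took 0.123% to 0.181% of all counts. Their summed level was 1251 ± 15 CPM in Nuclear_Hom, 1535 ± 11.4 in Nuclear_Het and 1230 ± 13.3 in Nuclear_WT (SD, n = 3 each). In total RNA it was 1351 ± 12.7 CPM in Total_Hom, 1283 ± 2.41 in Total_Het and 1810 ± 3.11 in Total_WT (SD, n = 3 each). Total_WT thus had the highest mean sum and Nuclear_WT the lowest, but Nuclear_WT libraries (1215 to 1239 CPM) overlapped those of Nuclear_Hom (1237 to 1267 CPM). Without Col6a6 the sums were 1186 ± 13.7 CPM in Nuclear_WT and 1193 ± 3.79 in Total_Het (SD, n = 3 each). Of the 46 genes with enough counts to be tested over all libraries, 24 had their highest group mean in Total_WT, 7 in Nuclear_Het, 5 each in Total_Hom and Total_Het, 3 in Nuclear_WT and 2 in Nuclear_Hom. Nuclear_WT held the lowest mean of 16 of the 46, Total_Het of 11 and Total_Hom of 10.

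**Figure D1:**
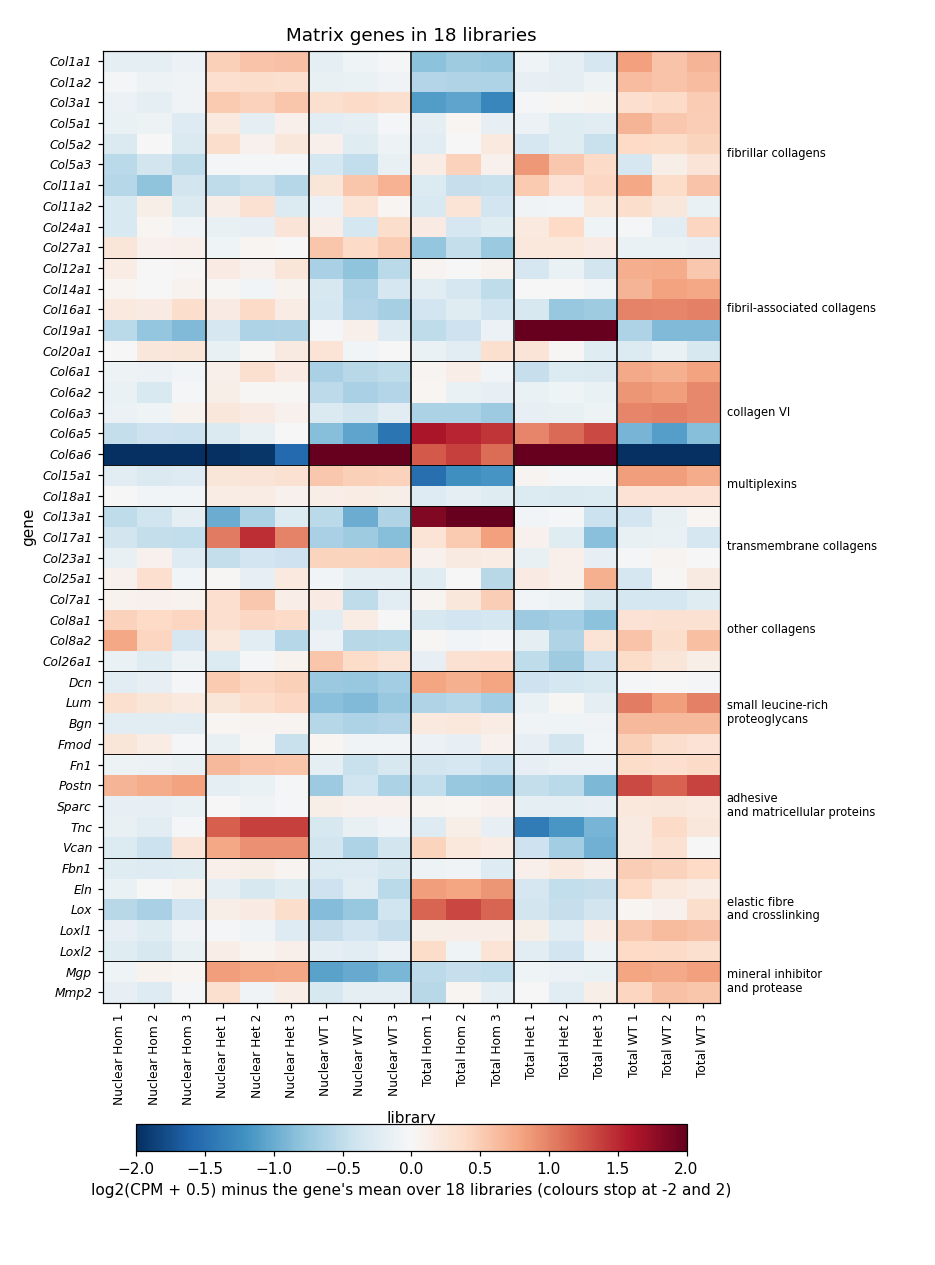
Level of the 46 matrix genes tested over all libraries (rows, grouped by role) in 18 libraries (columns), as log2(CPM + 0.5) minus the gene's mean over the libraries. Total_WT holds the highest mean of 24 of the 46 genes, and Col6a6 and Col19a1 stand out against the rest.

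Per kilobase of the deposited gene length, the most abundant transcripts were Mgp, an inhibitor of mineralisation, at 149 CPM per kb as a mean over the 18 libraries, and the small proteoglycan Bgn at 94.4 CPM per kb. Sparc, a collagen-binding matricellular protein, followed at 90.3 CPM per kb, and Dcn, the proteoglycan that coats collagen fibrils, at 49.5 CPM per kb. Col18a1, the precursor of endostatin, was the most abundant collagen per length at 42.4 CPM per kb. Col1a2 and Col1a1, the chains of type I collagen, reached 9.61 and 2.93 CPM per kb. Some collagens best known from cartilage were almost absent. Col2a1 had 15 counts in all 18 libraries together, Col9a1 had 1, Col9a2 had 10, and Col10a1 had 38. Col9a3 with 66 counts, Col22a1 with 21 and Col28a1 with 43 were likewise too low for any test. Reads of Col18a1 overlap Slc19a1 on the other strand, those of Fn1 overlap Apol7d, those of Col9a3 overlap Tcfl5 and those of Col10a1 overlap Nt5dc1, and because the strand setting of the counting is not given in the sources used here, these 4 genes are uncertain to that extent.

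In nuclear RNA, Hom libraries had less of most matrix transcripts than Het libraries. By edgeR's quasi-likelihood test with Benjamini-Hochberg adjusted p under 0.05, 25 of 46 tested genes were lower and 6 were higher in Nuclear_Hom, where 21.8% of all 15112 genes tested were lower and 21.4% higher (43.2% in either direction). The median log2 change of the 46 genes was -0.25, against -0.00 over all genes. The 25 genes that fell included Col1a1, Col1a2 and Col3a1, all of Col6a1, Col6a2 and Col6a3, and Dcn, Fn1, Tnc, Vcan, Lox and Mgp. The 6 that rose were Col27a1, Col23a1, Col8a2, Fmod, Postn and Eln. The number that rose was 2 without Nuclear_Hom replicate 2 and 3 without Nuclear_Hom replicate 1, and the number that fell stayed between 20 and 24 with any 1 library left out.

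In total RNA the same pair of genotypes gave a different picture. Of 45 tested genes, 20 were higher and 15 lower in Total_Hom than in Total_Het, beside 32.9% higher and 34.1% lower among all 15051 genes (67% in either direction). The median log2 change was 0.10 over the matrix genes and 0.01 over all genes. The share of matrix genes that fell was thus close to that of all genes. Without Total_Hom replicate 2, 17 rose and 17 fell. The 15 that fell again included Col1a1, Col1a2, Col3a1, Col15a1, Fn1 and Mgp, and the 20 that rose included Dcn, Bgn, Sparc, Tnc, Lox, Eln and Col13a1.

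Set side by side, these 2 comparisons use no library in common. Of 44 genes tested in both, 10 fell in both fractions, which is 22.7% of them, beside 4.33% of the 14858 genes tested in both. They were Col1a1, Col1a2, Col3a1, Col5a3, Col6a3, Col6a6, Col15a1, Fn1, Fbn1 and Mgp. A further 11 fell in nuclear and rose in total RNA, 25% of the matrix genes against 10.5% of all genes. They were Col5a2, Col6a1, Col18a1, Col17a1, Dcn, Bgn, Sparc, Tnc, Vcan, Lox and Loxl2. Col23a1 and Eln rose in both fractions, 4.55% of the matrix genes against 5.05% of all genes. Col27a1 rose in nuclear and fell in total RNA, 2.27% of the matrix genes against 12.5% of all genes. Col23a1 and Eln did not pass in nuclear RNA without Nuclear_Hom replicate 2, where no gene rose in both fractions by edgeR, and DESeq2 also gave 0. Col27a1 did not pass in nuclear RNA without Nuclear_Het replicate 1 or Nuclear_Hom replicate 1. Without Total_Hom replicate 2 the counts were 11 lower in both, 10 lower in nuclear and higher in total RNA, 1 higher in both and 1 higher in nuclear and lower in total RNA.

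**Figure D2:**
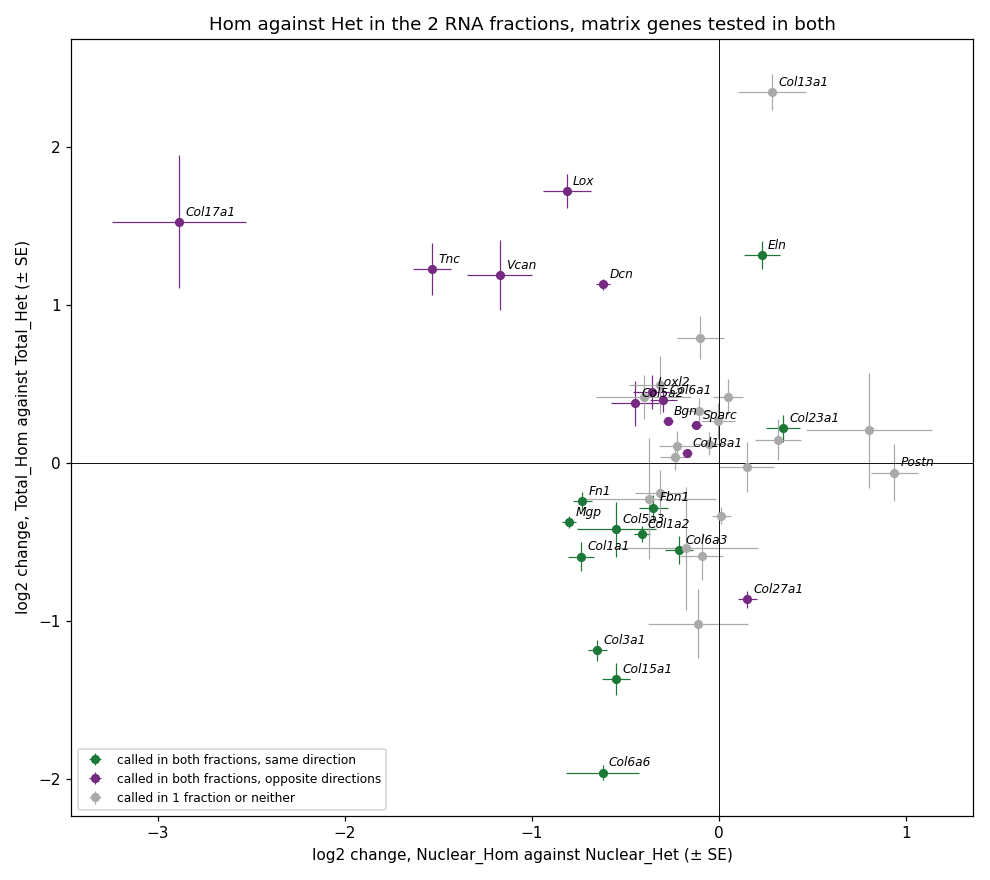
Log2 change of Hom against Het in nuclear RNA (horizontal) and total RNA (vertical) for the 44 matrix genes tested in both, with SE bars; the 2 axes share no library. Col1a1, Col1a2, Col3a1, Col15a1 and Col6a6 lie at the lower left, below 0 on both axes, while Lox, Tnc, Vcan, Dcn and Col17a1 lie at the upper left.

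Col1a1, Col1a2, Col3a1 and Col5a3 were the fibrillar collagens that fell in both fractions, while Col5a2 and Col27a1 were called in opposite directions. Of 10 tested fibrillar genes, 6 fell and 1 rose in Hom against Het in each fraction, although not the same genes throughout. Among all genes tested, 21.8% fell and 21.4% rose in nuclear RNA, and 34.1% fell and 32.9% rose in total RNA. Col3a1, which forms thin fibrils with collagen I, was at 29.4, 28.2 and 30.4 CPM in Nuclear_Hom, against 46.2, 44.2 and 47.1 CPM in Nuclear_Het and 39.8, 41.7 and 39.9 CPM in Nuclear_WT. In total RNA it was at 14.5, 15.1 and 12.7 CPM in Total_Hom, against 31.1, 32.4 and 33.1 CPM in Total_Het and 40.6, 41.6 and 45.7 CPM in Total_WT. Within each fraction all 3 Hom libraries lay below all Het and all WT libraries. The log2 change against Het was -0.65 ± 0.05 in nuclear RNA (SE, adjusted p = 3.01e-20) and -1.19 ± 0.07 in total RNA (adjusted p = 4.83e-37).

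Col1a2 had 47.0, 45.3 and 46.1 CPM in Nuclear_Hom, against 60.9, 62.1 and 60.5 CPM in Nuclear_Het and 43.8, 44.2 and 46.3 CPM in Nuclear_WT. It had 32.2, 31.7 and 31.4 CPM in Total_Hom, against 43.0, 42.5 and 44.9 CPM in Total_Het and 74.5, 72.2 and 74.7 CPM in Total_WT. Nuclear_Hom libraries overlapped Nuclear_WT but not Nuclear_Het, and Total_Hom libraries lay below both other total groups. Against Het, Col1a2 fell by 0.41 ± 0.04 on the log2 scale in nuclear RNA (SE, adjusted p = 4.66e-14) and by 0.45 ± 0.05 in total RNA (adjusted p = 5.09e-15). Col1a1 fell by 0.74 ± 0.07 and 0.59 ± 0.09 in the same comparisons (SE, adjusted p = 7.78e-16 in nuclear and 2.33e-09 in total RNA). Per kilobase, Col1a1 stood at 0.277 ± 0.010 of Col1a2 in Nuclear_Hom, 0.347 ± 0.015 in Nuclear_Het and 0.300 ± 0.013 in Nuclear_WT (SD, n = 3 each). The same ratio was 0.262 ± 0.013 in Total_Hom, 0.289 ± 0.032 in Total_Het and 0.320 ± 0.024 in Total_WT (SD, n = 3 each). The ratio was thus highest in Nuclear_Het and lowest in Total_Hom.

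Col27a1, a short fibrillar collagen best known from cartilage, did not follow them. It had 47.7, 42.8 and 43.1 CPM in Nuclear_Hom, against 38.1, 41.3 and 40.5 CPM in Nuclear_Het and 59.7, 52.5 and 57.3 CPM in Nuclear_WT. In Total_Hom it had 23.4, 28.9 and 24.0 CPM, against 46.9, 46.9 and 45.4 CPM in Total_Het and 36.6, 36.6 and 35.8 CPM in Total_WT. Its nuclear rise over Het was 0.15 ± 0.05 (SE, adjusted p = 0.011), which was lost without Nuclear_Het replicate 1 (adjusted p = 0.12) or without Nuclear_Hom replicate 1 (adjusted p = 0.145). Its fall in total RNA was -0.87 ± 0.05 (SE, adjusted p = 1.02e-31). The regulatory collagen V chain Col5a2 fell in nuclear RNA (log2 -0.45 ± 0.13, adjusted p = 0.0026) and rose in total RNA (0.38 ± 0.14, SE, adjusted p = 0.0141).

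The fibril-associated collagens sit on the surface of larger fibrils. In nuclear RNA the 4 tested were Col12a1 (log2 -0.11 ± 0.07, SE, adjusted p = 0.237), Col14a1 (0.01 ± 0.05, adjusted p = 0.881), Col16a1 (-0.01 ± 0.09, adjusted p = 0.962) and Col20a1 (0.15 ± 0.15, adjusted p = 0.451), and none passed the test for Hom against Het. In total RNA 2 of 5 rose and 2 fell, beside 32.9% higher and 34.1% lower among all genes tested. Col14a1 had 40.7, 39.3 and 41.9 CPM in Nuclear_Hom, against 40.4, 38.1 and 41.8 CPM in Nuclear_Het and 31.6, 25.7 and 31.2 CPM in Nuclear_WT. It had 33.99, 31.5 and 27.9 CPM in Total_Hom, against 40.1, 39.5 and 38.3 CPM in Total_Het and 63.8, 69.8 and 68.5 CPM in Total_WT. The Hom and Het libraries overlapped in nuclear RNA and not in total RNA, where the log2 change was -0.33 ± 0.05 (SE, adjusted p = 2.4e-08). Col12a1 and Col16a1 rose in Total_Hom over Total_Het by 0.33 ± 0.08 and 0.26 ± 0.12 (SE, adjusted p = 0.000231 and 0.0382). Col19a1 was nearly restricted to 1 group. It had 79, 78 and 75 counts in the Total_Het libraries, while the other 15 libraries held between 0 and 9 counts.

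Collagen VI has 3 classical chains, Col6a1, Col6a2 and Col6a3, and further chains Col6a4, Col6a5 and Col6a6, which lie next to each other on mouse chromosome 9 and resemble each other, so reads could be split between them. The classical chains all fell in Nuclear_Hom against Nuclear_Het, with log2 changes of -0.30 ± 0.07, -0.24 ± 0.08 and -0.22 ± 0.08 (SE, adjusted p = 0.000252, 0.0132 and 0.018). In total RNA Col6a1 rose by 0.40 ± 0.08 (SE, adjusted p = 1.86e-06), Col6a3 fell by 0.55 ± 0.09 (adjusted p = 2.04e-08) and Col6a2 gave 0.04 ± 0.08 (adjusted p = 0.709). The chains of this trimer therefore did not change together in total RNA.

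Col6a6 was at 1.43, 1.75 and 1.26 CPM in Nuclear_Hom, against 1.99, 2.07 and 2.87 CPM in Nuclear_Het and 42.2, 44.0 and 44.8 CPM in Nuclear_WT. In total RNA it was at 22.7, 25.03 and 21.0 CPM in Total_Hom, against 89.6, 92.0 and 86.4 CPM in Total_Het and 1.56, 1.04 and 1.46 CPM in Total_WT. The 3 groups with Col6a6 above 20 CPM are the 3 groups with Y-linked transcripts and almost no Xist, and the 3 groups below 3 CPM are those with high Xist; the part of this difference in the level of Col6a6 was not tested. Between Hom and Het, which are alike in Xist within a fraction, Col6a6 fell by 0.62 ± 0.20 in nuclear RNA (SE, adjusted p = 0.00657) and by 1.96 ± 0.05 in total RNA (adjusted p = 2.38e-75). Y-linked sums, however, were 2.32 to 2.93 CPM in Nuclear_Het and 0.509 to 0.746 CPM in Nuclear_Hom. The part of this trace difference in the nuclear fall of Col6a6 was not tested. Col6a5 was highest in Total_Hom at 6.59, 6.11 and 5.67 CPM, against 4.02, 4.57 and 5.23 CPM in Total_Het and 0.704, 0.571 and 0.777 CPM in Total_WT, while no nuclear library exceeded 1.81 CPM.

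The multiplexins Col15a1 and Col18a1 link basement membranes to the interstitium and carry the fragments known as restin and endostatin. Col15a1 had 12.03, 11.4 and 11.7 CPM in Nuclear_Hom, against 16.8, 17.0 and 17.6 CPM in Nuclear_Het and 20.6, 19.8 and 19.7 CPM in Nuclear_WT. It had 4.67, 5.71 and 5.97 CPM in Total_Hom, against 14.6, 13.8 and 13.9 CPM in Total_Het and 25.7, 25.5 and 24.0 CPM in Total_WT. In both fractions the order was Hom below Het below WT with no overlap. The log2 change of Hom against Het was -0.55 ± 0.08 in nuclear RNA (SE, adjusted p = 2.38e-09) and -1.37 ± 0.10 in total RNA (adjusted p = 9.09e-27). Col18a1, which had 241, 234 and 235 CPM in Nuclear_Hom, against 269, 270 and 258 CPM in Nuclear_Het and 267, 270 and 263 CPM in Nuclear_WT, fell by 0.17 ± 0.03 against Het (SE, adjusted p = 6.17e-08). It had 203, 215 and 206 CPM in Total_Hom, against 200, 199 and 201 CPM in Total_Het and 296, 297 and 298 CPM in Total_WT. Its rise of 0.06 ± 0.03 over Total_Het (SE, adjusted p = 0.0326) was lost without Total_Hom replicate 2 (adjusted p = 0.279) and without any 1 Total_Het library (adjusted p = 0.059 to 0.09).

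Of the transmembrane collagens, Col13a1, a cell-surface collagen of adhesion sites, was set apart by a single group. It had 16.7, 19.7 and 21.6 CPM in Total_Hom, against 4.08, 4.22 and 3.05 CPM in Total_Het and 3.17, 3.79 and 4.42 CPM in Total_WT. In nuclear RNA it had 2.87, 3.11 and 3.66 CPM in Nuclear_Hom, against 1.89, 2.58 and 3.46 CPM in Nuclear_Het and 2.80, 1.91 and 2.65 CPM in Nuclear_WT. All Total_Hom libraries lay above every other library, and the nuclear groups overlapped. The log2 change of Hom against Het was 2.35 ± 0.11 in total RNA (SE, adjusted p = 1.04e-40, 5.08-fold) and 0.28 ± 0.18 in nuclear RNA (adjusted p = 0.212). Col17a1, a hemidesmosomal collagen of epithelia, was low throughout, with 6, 5 and 4 counts in Nuclear_Hom, against 33, 45 and 28 counts in Nuclear_Het and 3, 2 and 1 counts in Nuclear_WT. Col23a1, another membrane collagen, had 11.6, 13.6 and 10.7 CPM in Nuclear_Hom, against 9.13, 9.70 and 9.53 CPM in Nuclear_Het and 17.6, 17.8 and 17.9 CPM in Nuclear_WT, and its rise over Het of 0.34 ± 0.09 (SE, adjusted p = 0.00106) was lost without Nuclear_Hom replicate 2 (adjusted p = 0.0595).

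**Figure D3:**
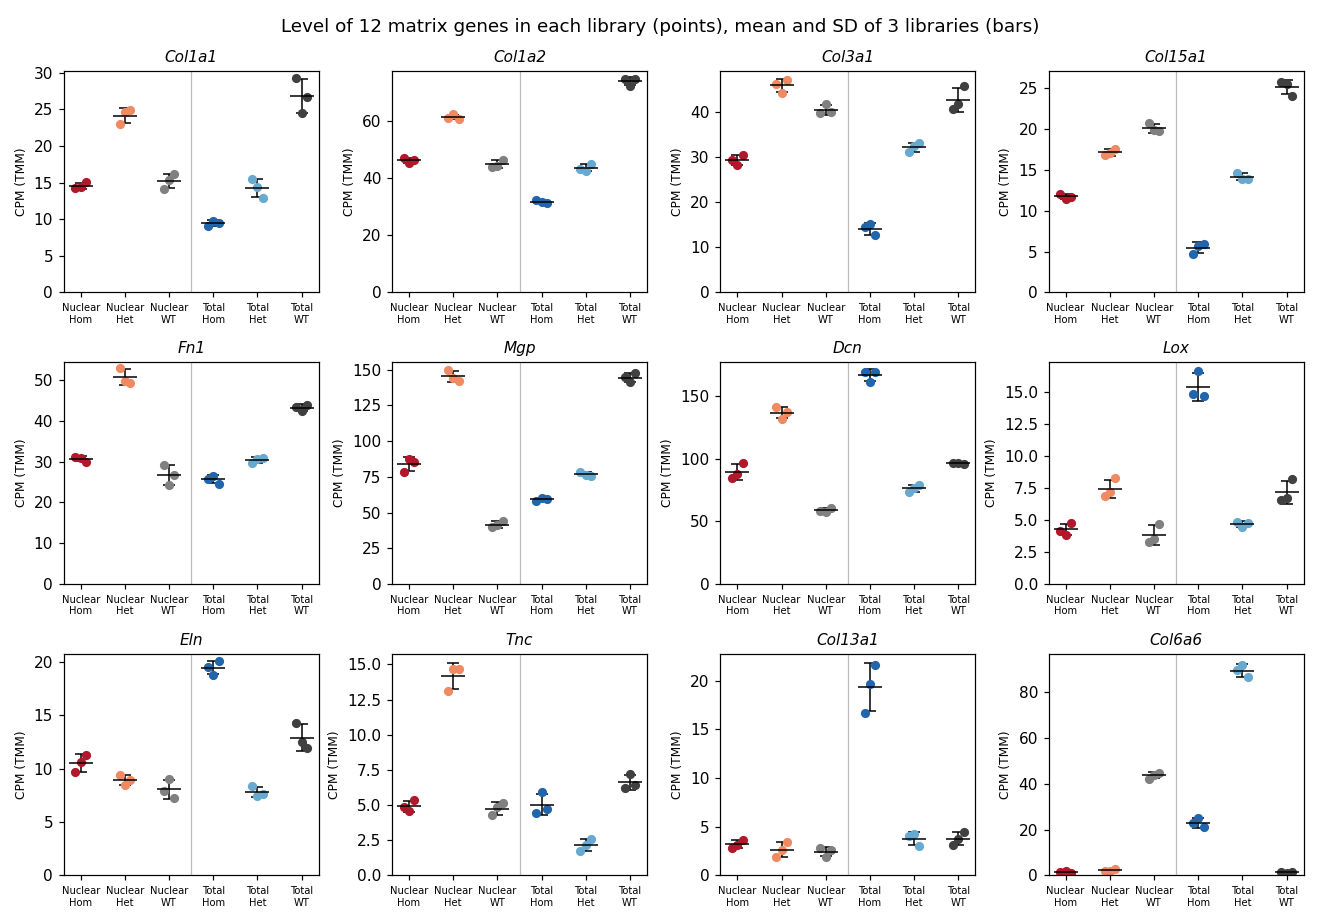
TMM-scaled CPM of 12 matrix genes in each library (points), with the mean and SD of the 3 libraries of a group (bars); nuclear groups stand left and total groups right of the grey line. Col1a1, Col1a2, Col3a1, Col15a1, Fn1 and Mgp are lower in Hom than in Het in both fractions, Dcn, Lox and Tnc are lower in nuclear and higher in total RNA, Col13a1 is high in Total_Hom, and Col6a6 is high in Nuclear_WT, Total_Hom and Total_Het.

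The small leucine-rich proteoglycans bind collagen fibrils and TGF-beta. Dcn had 84.5, 87.4 and 96.5 CPM in Nuclear_Hom, against 141, 132 and 137 CPM in Nuclear_Het and 58.4, 57.8 and 60.6 CPM in Nuclear_WT. It had 169, 161 and 170 CPM in Total_Hom, against 73.3, 76.4 and 79.2 CPM in Total_Het and 96.6, 96.9 and 95.6 CPM in Total_WT. Hom libraries thus lay between Het and WT in nuclear RNA and above both in total RNA, with no overlap. The log2 change against Het was -0.62 ± 0.04 in nuclear RNA (SE, adjusted p = 8.09e-26) and 1.13 ± 0.03 in total RNA (adjusted p = 8.17e-68). Per kilobase, Dcn stood at 4.82 ± 0.36 times Col1a2 in Nuclear_Hom, 5.54 ± 0.24 in Nuclear_Het and 3.27 ± 0.035 in Nuclear_WT (SD, n = 3 each). In total RNA the ratio was 13.0 ± 0.39 in Total_Hom, 4.36 ± 0.12 in Total_Het and 3.24 ± 0.080 in Total_WT (SD, n = 3 each), so Total_Hom stood above the other 5 groups.

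Bgn, the close relative of Dcn, had 191, 188 and 190 CPM in Nuclear_Hom, against 227, 231 and 228 CPM in Nuclear_Het and 149, 144 and 147 CPM in Nuclear_WT. It had 254, 254 and 245 CPM in Total_Hom, against 210.0, 209 and 209.9 CPM in Total_Het and 345, 347 and 348 CPM in Total_WT. No 2 groups of a fraction overlapped. Its log2 changes of Hom against Het were -0.27 ± 0.03 in nuclear RNA and 0.26 ± 0.02 in total RNA (SE, adjusted p = 2.7e-14 and 2.11e-19). Lum, which orders collagen fibrils, had 6.57, 6.23 and 5.96 CPM in Nuclear_Hom, against 6.20, 6.72 and 7.08 CPM in Nuclear_Het and 2.66, 2.57 and 2.87 CPM in Nuclear_WT. It had 3.25, 3.30 and 2.99 CPM in Total_Hom, against 4.65, 5.26 and 4.49 CPM in Total_Het and 11.1, 9.66 and 10.9 CPM in Total_WT. Lum fell by 0.59 ± 0.15 in Total_Hom against Total_Het (SE, adjusted p = 0.000188) and was not called in nuclear RNA (log2 -0.09 ± 0.12, adjusted p = 0.548). Fmod, fibromodulin, had 7.26, 6.75 and 5.86 CPM in Nuclear_Hom, against 5.44, 6.17 and 4.31 CPM in Nuclear_Het and 6.24, 5.74 and 5.74 CPM in Nuclear_WT. It was called higher in Nuclear_Hom than in Nuclear_Het (log2 0.31 ± 0.12, SE, adjusted p = 0.0294) although the groups overlapped, and the call was lost without any 1 of 4 libraries (adjusted p = 0.0565 to 0.254).

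Among the adhesive and matricellular proteins, Fn1 codes for fibronectin. It had 31.2, 30.8 and 29.98 CPM in Nuclear_Hom, against 52.9, 49.7 and 49.3 CPM in Nuclear_Het and 29.3, 24.3 and 26.7 CPM in Nuclear_WT. It had 25.8, 26.5 and 24.6 CPM in Total_Hom, against 29.6, 30.7 and 30.8 CPM in Total_Het and 43.5, 42.3 and 43.9 CPM in Total_WT. Hom lay below Het in both fractions without overlap, by 0.73 ± 0.05 on the log2 scale in nuclear RNA (SE, adjusted p = 1.04e-22) and by 0.24 ± 0.06 in total RNA (adjusted p = 8.28e-05). With library totals in place of TMM the total RNA change of Fn1 was -0.09 and no longer passed. Sparc had 212, 211 and 217 CPM in Nuclear_Hom, against 236, 226 and 231 CPM in Nuclear_Het and 259, 253 and 253 CPM in Nuclear_WT. It had 246, 244 and 253 CPM in Total_Hom, against 209.7, 209 and 211 CPM in Total_Het and 273, 279 and 271 CPM in Total_WT. Groups of a fraction did not overlap, and the changes of Hom against Het were small, at log2 -0.12 ± 0.03 in nuclear and 0.24 ± 0.02 in total RNA (SE, adjusted p = 0.000124 and 1.66e-16).

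Tnc, the anti-adhesive tenascin of injured and remodelling tissue, had 4.86, 4.56 and 5.34 CPM in Nuclear_Hom, against 13.1, 14.7 and 14.7 CPM in Nuclear_Het and 4.27, 4.86 and 5.13 CPM in Nuclear_WT. It had 4.46, 5.91 and 4.76 CPM in Total_Hom, against 1.76, 2.14 and 2.62 CPM in Total_Het and 6.24, 7.22 and 6.41 CPM in Total_WT. Nuclear_Het was thus the high group and Total_Het the low one, and both were clear of the Hom libraries. The log2 changes of Hom against Het were -1.54 ± 0.10 in nuclear and 1.22 ± 0.17 in total RNA (SE, adjusted p = 3.93e-24 and 5.49e-11). Vcan, a large hyaluronan-binding proteoglycan, had 1.80, 1.58 and 2.83 CPM in Nuclear_Hom, against 4.26, 4.75 and 4.74 CPM in Nuclear_Het and 1.65, 1.31 and 1.65 CPM in Nuclear_WT. In total RNA Vcan had 3.30, 2.71 and 2.58 CPM in Total_Hom, against 1.59, 1.21 and 0.935 CPM in Total_Het and 2.67, 2.96 and 2.28 CPM in Total_WT. Its log2 changes of Hom against Het were -1.17 ± 0.17 and 1.19 ± 0.22 (SE, adjusted p = 1.43e-08 and 1.05e-06). Postn, a matricellular protein of activated fibroblasts, went another way, with 7.17, 7.46 and 7.85 CPM in Nuclear_Hom, against 3.69, 3.84 and 4.15 CPM in Nuclear_Het and 2.39, 3.11 and 2.59 CPM in Nuclear_WT. It rose by 0.94 ± 0.13 over Nuclear_Het (SE, adjusted p = 9.62e-10), and in total RNA it had 2.89, 2.32 and 2.28 CPM in Total_Hom, against 2.95, 2.77 and 2.06 CPM in Total_Het and 11.47, 10.4 and 11.8 CPM in Total_WT.

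The elastic fibre genes divided. Eln, tropoelastin, had 9.67, 10.7 and 11.3 CPM in Nuclear_Hom, against 9.42, 8.44 and 8.94 CPM in Nuclear_Het and 7.89, 9.02 and 7.22 CPM in Nuclear_WT. It had 19.5, 18.8 and 20.04 CPM in Total_Hom, against 8.39, 7.46 and 7.60 CPM in Total_Het and 14.3, 12.5 and 11.9 CPM in Total_WT. Total_Hom lay above all other libraries, by 1.31 ± 0.09 over Total_Het (SE, adjusted p = 1.11e-28), and the nuclear rise over Het was 0.23 ± 0.10 (adjusted p = 0.0453). This nuclear rise no longer passed without Nuclear_Hom replicate 2. Lox, the founding lysyl oxidase, had 4.16, 3.86 and 4.76 CPM in Nuclear_Hom, against 6.91, 7.18 and 8.25 CPM in Nuclear_Het and 3.26, 3.55 and 4.69 CPM in Nuclear_WT. It had 14.9, 16.7 and 14.7 CPM in Total_Hom, against 4.82, 4.45 and 4.798 CPM in Total_Het and 6.54, 6.75 and 8.21 CPM in Total_WT. The log2 changes of Lox in Hom against Het were -0.81 ± 0.13 in nuclear RNA and 1.72 ± 0.11 in total RNA (SE, adjusted p = 6e-08 and 8.74e-32). Loxl2 followed the same directions (-0.36 ± 0.10 and 0.45 ± 0.11; SE, adjusted p = 0.0022 and 0.000152), whereas Fbn1, fibrillin, fell in both fractions (-0.35 ± 0.08 and -0.28 ± 0.08; SE, adjusted p = 9e-05 and 0.00115).

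Mgp, the matrix Gla protein that keeps soft tissue from calcifying, had 78.3, 87.5 and 85.5 CPM in Nuclear_Hom, against 150, 144 and 142 CPM in Nuclear_Het and 39.5, 41.2 and 43.9 CPM in Nuclear_WT. It had 58.0, 60.3 and 59.3 CPM in Total_Hom, against 78.4, 76.6 and 75.5 CPM in Total_Het and 145, 141 and 148 CPM in Total_WT. No groups of a fraction overlapped, and the place of WT turned from lowest in nuclear to highest in total RNA. Against Het, Mgp fell by 0.80 ± 0.04 in nuclear RNA (SE, adjusted p = 1.37e-33) and by 0.38 ± 0.04 in total RNA (adjusted p = 4.33e-18). The gelatinase Mmp2 fell in nuclear RNA only just past the threshold (log2 -0.32 ± 0.13, SE, adjusted p = 0.0465), with overlapping groups.

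Against WT, the matrix genes were more often higher than lower in the mutant groups in nuclear RNA, and mostly lower in total RNA. In nuclear RNA 17 of 46 genes rose and 9 fell in Hom (all genes: 26.5% higher, 27.8% lower, 54.3% either way), and 29 rose and 7 fell in Het (all genes: 32.8% higher, 31.7% lower, 64.6% either way). In total RNA 9 of 45 rose and 28 fell in Hom (all genes: 30.6% higher, 31.0% lower, 61.6% either way), and 5 rose and 32 fell in Het (all genes: 30.9% higher, 30.3% lower, 61.1% either way). The median log2 changes were 0.18 and 0.42 in nuclear RNA and -0.47 and -0.62 in total RNA for Hom and for Het, where all genes had medians between -0.01 and 0.02. Hom and Het are compared here with the same WT libraries of each fraction. Since WT was the genotype with the opposite Xist status in both fractions, and with opposite status between fractions, genotype and that status cannot be told apart in any of these 4 comparisons. Without Total_Hom replicate 2, 10 genes rose and 28 fell in total RNA of Hom against WT.

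**Figure D4:**
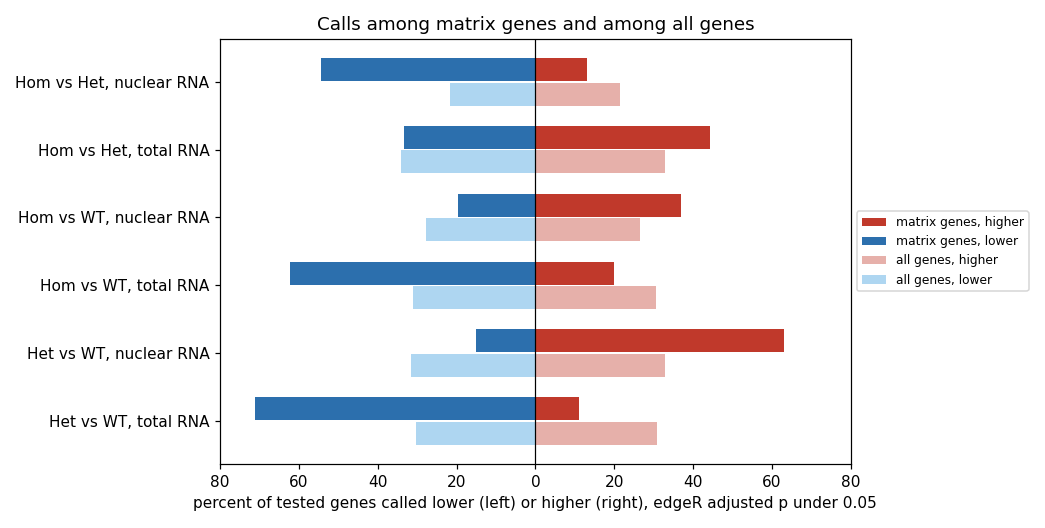
Percent of tested genes called lower (left of 0) and higher (right of 0) in the 6 genotype comparisons, for the matrix genes (dark bars) and for all genes tested (pale bars), by edgeR with adjusted p under 0.05. The matrix genes exceed the background on the lower side in Hom against Het in nuclear RNA and in both mutants against WT in total RNA, and on the higher side in Hom against Het in total RNA and in both mutants against WT in nuclear RNA.

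The largest nuclear differences of Hom from WT were Postn (log2 1.48 ± 0.14), Lum (1.22 ± 0.14) and Col6a5 (1.04 ± 0.32) upward and Col6a6 (-4.85 ± 0.10), Col11a1 (-1.37 ± 0.22) and Col15a1 (-0.77 ± 0.08) downward, among genes averaging at least 1 CPM (SE, adjusted p = 2.16e-16, 2.04e-12, 0.00393, 1.84e-60, 1.38e-07 and 1.66e-15). In total RNA, Col6a6 (4.07 ± 0.12), Col6a5 (3.15 ± 0.20) and Col13a1 (2.35 ± 0.11) stood highest in Hom against WT, and Col15a1 (-2.20 ± 0.09), Postn (-2.17 ± 0.13) and Lum (-1.73 ± 0.12) lowest (SE, adjusted p = 4.7e-69, 1.47e-31, 4.9e-42, 7.95e-51, 7.54e-33 and 5.44e-27). Postn and Lum thus had opposite signs in the fractions. Col3a1 and Col15a1 were lower in Hom than in WT in both fractions, Col3a1 by 0.46 ± 0.05 in nuclear RNA and by 1.60 ± 0.06 in total RNA (SE, adjusted p = 9.87e-13 and 1.03e-53). Dcn and Eln were higher in both, Dcn by 0.61 ± 0.04 and 0.79 ± 0.03 and Eln by 0.39 ± 0.10 and 0.59 ± 0.08 on the log2 scale (SE, adjusted p = 2.76e-23, 9.61e-52, 0.000384 and 6.46e-11). The rise of Fn1 over WT in nuclear RNA (0.20 ± 0.06, SE, adjusted p = 0.00263) was lost without Nuclear_WT replicate 2 (adjusted p = 0.0691).

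Among genes averaging at least 1 CPM, the largest rises of Het over WT in nuclear RNA were those of Mgp (log2 1.82 ± 0.04), Tnc (1.59 ± 0.11) and Vcan (1.58 ± 0.19; SE, adjusted p = 3.8e-57, 7.12e-25 and 4.96e-12). The largest falls were those of Col6a6 (-4.23 ± 0.10), Col11a1 (-1.26 ± 0.22) and Col23a1 (-0.90 ± 0.09; SE, adjusted p = 3.46e-58, 7.22e-07 and 2.97e-16). In total RNA Mgp, Tnc and Vcan were lower in Het than in WT, by 0.91 ± 0.03, 1.61 ± 0.16 and 1.06 ± 0.23 (SE, adjusted p = 6.96e-57, 1.06e-17 and 1.71e-05).

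Nuclear and total RNA of a genotype were also compared directly, with the difference in Xist noted above. In Hom, nuclear RNA had more of 14 and less of 16 of the 46 genes (all genes: 30.5% higher, 29.8% lower, 60.3% either way), with a median of -0.06. In Het, 27 were higher and 8 lower (all genes: 33.4% higher, 30.2% lower, 63.6% either way), with a median of 0.27. In WT, 5 were higher and 33 lower (all genes: 30.9% higher, 30.8% lower, 61.7% either way), with a median of -0.66. Col1a2 was higher in nuclear RNA by 0.54 ± 0.05 in Hom and by 0.50 ± 0.04 in Het, and lower by 0.73 ± 0.04 in WT (SE, adjusted p = 6.95e-21, 1.73e-20 and 3.28e-36). Lox was lower in nuclear RNA by 1.86 ± 0.11 in Hom and by 0.93 ± 0.13 in WT, and higher by 0.67 ± 0.13 in Het (SE, adjusted p = 1.99e-34, 2.39e-10 and 1.88e-06).

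The nuclear-to-total ratio itself was compared between genotypes by an interaction term over all 18 libraries. Against Het, the ratio in Hom was higher for 11 and lower for 22 of 46 genes (all genes: 31.7% higher, 31.9% lower, 63.6% either way), with a median of -0.20 and -0.02 over all genes. Tnc (-2.76 ± 0.19), Lox (-2.53 ± 0.17) and Vcan (-2.35 ± 0.28) had the largest falls among genes averaging at least 1 CPM, and Dcn, one of the most abundant genes, also fell (-1.74 ± 0.05; SE, adjusted p = 5.92e-28, 8.21e-30, 3.26e-13 and 1.55e-67). Col6a6 (1.34 ± 0.21), Col27a1 (1.02 ± 0.08) and Postn (1.005 ± 0.22) had the largest rises among genes averaging at least 1 CPM (SE, adjusted p = 1.18e-08, 3.12e-24 and 3.27e-05). Col3a1 and Col15a1, lower in both fractions of Hom, nevertheless had ratios higher by 0.54 ± 0.09 and 0.82 ± 0.13 (SE, adjusted p = 1.06e-08 and 4.79e-09), since the fall was larger in total RNA. Against WT, the ratio in Hom was higher for 25 and lower for 9 of 46 genes (all genes: 28.4% higher, 27.7% lower, 56.1% either way), with a median of 0.55, against 0.02 over all genes.

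Other genes of matrix biology were described from lists of known factors. For each list the shares of all genes called in Hom against Het stand beside it, 21.4% higher and 21.8% lower in nuclear RNA and 32.9% higher and 34.1% lower in total RNA, and no list was tested against other genes. Of 16 collagen folding and processing genes, 5 rose and 2 fell in Nuclear_Hom against Nuclear_Het, and 3 rose and 8 fell in Total_Hom against Total_Het. P4hb, the disulfide isomerase subunit of prolyl hydroxylase, had a log2 change of 0.22 ± 0.02 in nuclear RNA, and Serpinh1, the collagen chaperone HSP47, of 0.20 ± 0.04 in nuclear and -0.49 ± 0.04 in total RNA (SE, adjusted p = 4.95e-15, 2.75e-06 and 3.68e-27). P4hb fell in total RNA (log2 -0.19 ± 0.02, SE, adjusted p = 9.46e-20). Plod2, the lysyl hydroxylase of collagen telopeptides, fell by 0.30 ± 0.05 in nuclear and by 1.23 ± 0.05 in total RNA (SE, adjusted p = 1.1e-06 and 5.43e-55).

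TGF-beta signalling includes inducers and targets of matrix genes. Of 20 tested genes, 4 rose and 11 fell in Nuclear_Hom against Nuclear_Het, and 13 rose and 2 fell in Total_Hom against Total_Het. Tgfbi, a secreted adhesion protein, fell by 1.04 ± 0.06 in nuclear RNA (SE, adjusted p = 2.29e-27). Tgfbi rose in total RNA (log2 0.47 ± 0.06, SE, adjusted p = 7.83e-12). In total RNA Ctgf, a matricellular target, rose by 0.89 ± 0.03 and Thbs1, an activator of latent TGF-beta, by 0.88 ± 0.03 (SE, adjusted p = 2.01e-60 and 6.85e-58). Of 20 matrix proteases and inhibitors, 5 rose and 11 fell in nuclear RNA and 12 rose and 5 fell in total RNA. The membrane collagenase Mmp14 was at -0.72 ± 0.05 and 1.03 ± 0.06 (SE, adjusted p = 6.71e-21 and 9.03e-37). Timp3, with the smallest p of this list in total RNA, fell there (log2 -0.78 ± 0.01, SE, adjusted p = 1.58e-96). The list sum was 3096 ± 39.9 CPM in Nuclear_Hom and 2705 ± 28.5 in Nuclear_Het (SD, n = 3 each). It was 3409 ± 22 CPM in Total_Hom and 4212 ± 30.6 in Total_Het (SD, n = 3 each). The sum thus moved opposite to most called genes. Of 15 matrix receptors, 4 rose and 6 fell in nuclear RNA and 10 rose and 3 fell in total RNA. The syndecan Sdc1 was at -0.74 ± 0.04 and 0.73 ± 0.05 (SE, adjusted p = 1.67e-26 and 1.35e-29). Itgb6, the receptor with the smallest p in total RNA, fell there (log2 -0.90 ± 0.03, SE, adjusted p = 1.28e-59). Of the elastic fibre and other matrix partners, 8 of 20 rose and 9 fell in nuclear RNA, and 13 of 19 rose and 2 fell in total RNA.

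Marker lists of the cells that could be present are given beside the same shares of all genes, 21.4% higher and 21.8% lower in nuclear RNA and 32.9% higher and 34.1% lower in total RNA. Of 16 tested markers of fibroblasts, pericytes and mesangial cells, the usual makers of interstitial matrix, 2 rose and 5 fell in Nuclear_Hom against Nuclear_Het, and 6 rose and 5 fell in Total_Hom against Total_Het. Their summed level was 388.3 to 403 CPM in Nuclear_Hom, against 466.5 to 471.9 in Nuclear_Het and 333.5 to 337.4 in Nuclear_WT, and 402.5 to 421.5 in Total_Hom, against 318.4 to 330.5 in Total_Het and 438.5 to 447.9 in Total_WT. Of that list the juxtaglomerular marker Ren1 was at 0 in 17 of 18 libraries. Immune markers fell in Nuclear_Hom against Nuclear_Het for 10 of 11 genes, with sums of 706 to 730 CPM and 1998 to 2107 CPM, against 824.5 to 853.8 CPM in Nuclear_WT. In total RNA 4 immune markers rose and 4 fell, with sums of 1340 to 1354 CPM in Total_Hom, against 1357 to 1362 in Total_Het and 1049 to 1090 in Total_WT.

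Endothelial markers rose for 6 of 12 genes and fell for 1 in Nuclear_Hom against Nuclear_Het, and rose for 11 of 12 in Total_Hom against Total_Het, with sums of 1791 to 1803 CPM in Total_Hom, against 1186 to 1197 in Total_Het. Podocyte markers rose for 1 and fell for 7 of 12 genes in nuclear RNA, and 10 of 12 rose in total RNA, with sums of 678 to 694 CPM in Total_Hom, against 445 to 451 in Total_Het. Proximal tubule markers rose for 11 of 12 genes in nuclear RNA and fell for 10 of 12 in total RNA, with sums of 16050 to 16370 CPM in Total_Hom, against 50000 to 51010 in Total_Het. Markers of parietal and injured epithelium rose for 1 and fell for 6 of 10 genes in nuclear RNA, and 9 of 10 rose and 1 fell in total RNA. The injury marker Lcn2 was at -3.74 ± 0.06 and 3.003 ± 0.06 (SE, adjusted p = 2.05e-68 and 1.73e-87). Havcr1 was the 1 that fell in total RNA (log2 -2.05 ± 0.05, SE, adjusted p = 7.02e-73), opposite to Lcn2 there. The distal nephron list had 4 of 10 higher and 2 lower in nuclear RNA and 7 higher and 3 lower in total RNA. No defining marker of these lists was at 0 in every library, and the part of these cell types in the changes of the matrix genes was not tested.

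Across the 6 group means, Col1a1 was the matrix gene most like Col1a2 (Pearson r = 0.99). Next in likeness to Col1a2 were Col6a3 (0.948), Mmp2 (0.884) and Fn1 (0.87). The gene most like Dcn was Lox (0.906). These 6 points share libraries and scaling, and the values are a description.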

How the data were processed

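TRIzol was used to extract nuclear and total RNA and a KAPA stranded mRNA kit to prepare it for sequencing, per the labels' protocols. The submitters' processing notes list, with no order or settings, featureCounts, STAR 2.5.2b, CASAVA, DESeq2 and the build mm9. Annotation and strand setting are not given in the sources used here. The authors deposited 1 table of raw counts per gene symbol with a column of gene length in bases, used here only for CPM per kilobase. Each of the 18 count columns was mapped by its name, leaving 0 unmapped. In the column of Total_WT replicate 1, which added up to 200140709, no gene was below the total of the 9 nuclear columns (181106189 over all genes). That total was subtracted, which left 19034520 counts.

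Tests used edgeR 4.0.16 under R 4.3.3, with robust quasi-likelihood fits after filterByExpr and TMM scaling. Genotypes were compared in 1 fit over the 9 libraries of a fraction, and nuclear with total RNA and their ratio in 1 fit over all 18 (15410 genes). P-values were Benjamini-Hochberg adjusted over all genes tested, with a threshold of 0.05. Replicates varied little, with a coefficient of 3.05% between nuclear, 3.9% between total and 3.54% between all libraries beyond counting error. The fits were also run on simulated counts with a small set of genes raised in a group. That setting does not cover data in which as many genes are called as here. CPM values use TMM sizes over all 18 libraries. Reads carry no molecular identifiers, so counting error is a lower limit.

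Values in every library are given for the 10 genes with the highest mean CPM and up to 3 called genes with the largest change in each direction per comparison, at a mean of at least 1 CPM; other genes given in full were chosen after their values were seen. For pathway and cell type lists the rule took up to the 3 smallest p-values, and 1 gene it took is not reported here; Serpinh1 in nuclear RNA and Mmp14 were also chosen after their values were seen. The genes, lists, tests and the subtraction were chosen with earlier results of these data known. Alternatives were RLE size factors, library totals, DESeq2 1.42.0, no low-count filter, a replicate block, only the groups compared, the deposited Total_WT column and leaving out each library. Promoters came from RefSeq, GRCm38.p6, and gene overlaps from GENCODE M21. Windows overlapping an annotated exon were not printed.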

Additional observations from a re-analysis of the deposited data

Results flagged for a closer look

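The difference between genotypes was not the same in nuclear and total RNA for these genes, by the interaction test in edgeR over all 18 libraries. For Hom against Het the log2 difference of the nuclear-to-total ratio was 1.34 for Col6a6, 1.02 for Col27a1 and 1 for Postn, and it was -2.76 for Tnc, -2.53 for Lox and -2.35 for Vcan. For Hom against WT it was 3.65 for Postn, 2.95 for Lum and 2.31 for Mgp, and it was -8.92 for Col6a6, -2.11 for Col6a5 and -1.96 for Col13a1. Xist status differed between nuclear and total RNA of each genotype, and in the WT contrast also between genotypes, so neither can be told apart from the fraction or genotype here.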

How the results depend on the processing

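RLE size factors, no low-count filter, only the groups compared and a replicate block kept all 26 counts of genes within 1.5 times. Same-numbered libraries correlated at -0.039 to 0.024, which showed no pairing by number but cannot exclude it with so few libraries. With the replicate block, 24 genes were lower, against 25 without it, in Nuclear_Hom than in Nuclear_Het. The block changed no call of a named gene.

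Genes higher in Nuclear_Hom than in Nuclear_Het numbered 2 with library totals, 3 with DESeq2 and 2 to 5 with 1 library left out. With library totals, 5 genes were lower in nuclear than total RNA of Het, 6 had a higher ratio in Hom than Het, 1 rose in both fractions and 0 rose in nuclear and fell in total RNA. DESeq2 gave 0 that rose in both. Leaving out 1 library gave 0 (without Nuclear_Hom replicate 2) to 2 that rose in both, and 0 (without Nuclear_Het replicate 1 or Nuclear_Hom replicate 1) to 1 that rose in nuclear and fell in total RNA. Alternatives for counts over both fractions were chosen after seeing the data. With the deposited Total_WT column, 13 rose and 9 fell in Total_Hom against Total_Het, 5 rose in Total_Hom against Total_WT, 6 had a higher ratio in Hom than Het, 6 fell in both fractions and 7 fell in nuclear and rose in total RNA. That column also ended 19 calls of named genes.

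Signs of values that had not passed the test turned with library totals for Col14a1 (-0.0433, Hom against Het, nuclear) and Col1a2 (-0.17, ratio of Hom against Het), and called values turned for Sparc (0.0482, Het against WT, nuclear; 0.046, ratio of Hom against WT). Without a filter Col18a1, not called, turned (-0.0043, Het against WT, nuclear). With 1 library left out, values reached or crossed 0 for Col14a1, from -0.0229 to 0.0427 (Hom against Het, nuclear), Col18a1, from -0.0067 to 0.0282 (Het against WT, nuclear) and Col14a1, from 0 to 0.0659 (nuclear against total, Het). Library totals shifted the median of all genes by up to 0.24 (nuclear against total RNA, Het), and gave 2257 higher and 4475 lower of all genes in Hom against Het in nuclear RNA, against 3236 and 3293 with TMM, and 6910 and 3195 in total RNA, against 4949 and 5138. Library totals also gave, in nuclear RNA against WT, 6670 higher and 2357 lower in Hom and 8122 and 2572 in Het, and in total RNA of Het against WT 2391 and 7388. For nuclear against total RNA they gave 8546 and 2509 in Het and 2481 and 7304 in WT, and for the ratio 2959 and 7201 in Hom against Het and 6236 and 2616 in Hom against WT. The cause of these changes was not tested.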
